A study of Mus musculus with 6 samples.

Results

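MiR-204 and miR-211 are sister microRNAs (miRNAs) known for their abundance in the pigment epithelium of the eye. They were followed through an array study of retinal cells in experimental autoimmune uveoretinitis (EAU), a T cell-driven inflammation of the retina that is induced in mice as a model of human uveitis. The members were all spots whose probe name holds mmu-miR-204 or mmu-miR-211. These are 2 of 597 probes that name a mouse miRNA, with 4 spots each and so 8 of the 8720 spots of an array. The study compared retinal cells of naive B10.RIII mice with those of B10.RIII mice developing EAU on day 14, all aged 8 weeks, in 3 separately harvested samples per group. The sources used here do not say how many mice a sample holds or how EAU was induced. Of each sample, 800 ng of total RNA carried the dye Hy3. It was hybridised to an array of locked nucleic acid capture probes beside a shared reference, a pool of equal amounts of the samples that carried the dye Hy5.

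MiRNAs are short RNAs that pair with messenger RNAs, chiefly through their bases 2 to 8 (the seed), and lower the output of those messengers. MiR-204 and miR-211 are made from introns of Trpm3 and Trpm1, genes for cation channels, and both are best known in the retinal pigment epithelium, the pigmented layer that supports the photoreceptors. There they are linked to epithelial barrier and differentiation functions, and miR-211 is also abundant in melanocytes. MiR-204 is made in other eye tissues too, such as the lens and glia of the neural retina, and Trpm1 is active in bipolar cells of the retina. The arrays thus measure both miRNAs in whole cell harvests, without showing which cells held them.

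Both members found a mature sequence in RefSeq (GRCm38.p6), where the names carry the suffix of the hairpin's 5′ arm. The sequences are shown 5′ to 3′, with the seed in capitals, because the resemblance of the members bears on how separately the probes can measure them.
miR-204-5p: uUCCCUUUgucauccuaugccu
miR-211-5p: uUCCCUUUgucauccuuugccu
miR-204-3p: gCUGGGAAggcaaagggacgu
The 5p sequences share 21 of 22 bases. The only difference is A17U, counted from 1 at the 5′ end with the base of miR-204 first. Of 1679 mature mouse miRNA names in the table, 3 have this seed, the members and miR-7670-3p, which no spot of the array names. The capture sequences of the probes were not used here, and how much of each miRNA binds the probe of the other was not tested, so the members' values are not taken as independent of each other here.

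In GRCm38.p6 the mature miR-204-5p lies on the plus strand at chr19:22750610-22750631 and miR-211-5p on the plus strand at chr7:64205831-64205852. Each falls within the RefSeq span of its host, Trpm3 for miR-204 and Trpm1 for miR-211. The hairpins they are cut from are shown with both arms in capitals, since a further probe on the array is named for the 3′ arm of the rat miR-204 hairpin.
Mir204 hairpin: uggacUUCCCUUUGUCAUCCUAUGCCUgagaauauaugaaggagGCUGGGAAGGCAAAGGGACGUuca
Mir211 hairpin: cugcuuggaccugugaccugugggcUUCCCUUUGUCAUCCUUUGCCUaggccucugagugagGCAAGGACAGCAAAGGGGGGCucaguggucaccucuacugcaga
Outside the loop and flanks, the 5′ arms are thus nearly the same while the 3′ arms differ.

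Both miRNAs were lower in EAU. The probe of miR-204 fell 1.66-fold relative to the reference (log2 difference -0.73, 95% interval -1.07 to -0.40; limma, adjusted p = 0.0291). The probe of miR-211 fell 1.41-fold (log2 difference -0.50, interval -0.60 to -0.39; limma, adjusted p = 0.00702). These are 2 of 2 members, where 8.74% of the 595 tested mouse probes were called lower. Total RNA of mixed cells was measured, so fewer cells that make these miRNAs and less of them per cell cannot be told apart. Each array was on a slide of its own, and the scan day was shared within each group but not between them, so the effects of group and of scan day cannot be told apart.

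Before any normalization, the groups did not overlap in the Hy3 brightness of the miR-204 spots. How many probes did not overlap in raw Hy3 was not counted, so this separation is not read as a result. The sample (Hy3) signal of miR-204, averaged over 4 spots, was 1323, 1417 and 1126 in naive replicates 1 to 3. It was 730, 1073 and 220 in EAU replicates 1 to 3. Every EAU array lay below every naive array, with EAU replicate 2 close under the lowest naive one and EAU replicate 3 far below the rest. The group means were 1289 ± 149 in naive and 674 ± 429 in EAU (SD, n = 3 each), 1.91-fold apart. All 4 spots stood above the blank level on all 6 arrays. This level is the median plus 3 median absolute deviations of blank and negative-control spots, and it ran from 65.4 to 107 in the Hy3 channel.

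The Hy5 channel holds the same pooled RNA on every array. Its miR-204 signal was 144, 202 and 118 in naive replicates 1 to 3, against 88.4, 143 and 57.1 in EAU replicates 1 to 3. The groups overlapped there, but the mean was lower on the EAU arrays too (155 ± 42.7 against 96.2 ± 43.6, SD, n = 3 each). Since the reference is one pool, these values measure the arrays and not the mice, and EAU replicate 3 was the dimmest in both channels. Its 99th percentile of Hy5 over all spots was 202, against 503 to 1009 on the other arrays. The part of array brightness in the Hy3 difference was not tested.

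The spots of miR-211 lay close to the blanks in the reference channel. Its Hy3 signal was 276, 234 and 174 in naive replicates 1 to 3, against 136, 199 and 66.8 in EAU replicates 1 to 3. The groups overlapped in this raw signal, because EAU replicate 2 was brighter than naive replicate 3, and the means were 228 ± 51.3 and 134 ± 66.0 (SD, n = 3 each). On EAU replicate 3 the spots of miR-211 lay at the edge of detection, with 3 of 4 above the Hy3 blank level of 65.4 and 0 of 4 above the Hy5 blank level of 39.0. Its Hy5 signal was 52.7, 56.6 and 40.7 on the naive arrays and 41.3, 54.0 and 37.4 on the EAU arrays, over a local background of 29.2 to 30.8. Between 6.62 and 25.8 units of reference signal were thus left above local background at this probe.

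**Figure D1:**
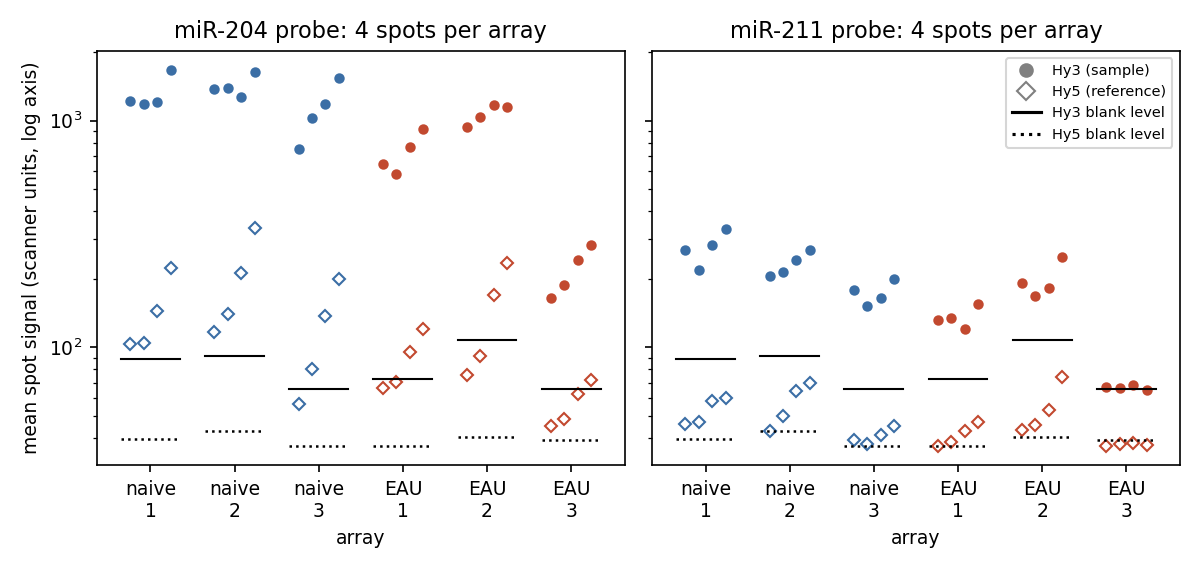
Mean signal of each of the 4 spots of the miR-204 probe (left) and the miR-211 probe (right) on every array, in scanner units on a log axis. Filled circles are Hy3 (sample), open diamonds Hy5 (pooled reference), blue is naive and red is EAU, and lines mark each array's blank levels. On EAU replicate 3 the miR-211 spots touch both blank levels, while the miR-204 spots stay above theirs.

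The 4 spots of a probe lie in different rows of the array, and their reference signal differed by row. Averaged over the 6 arrays, the Hy5 signal of the miR-204 spots was 77.2, 89.3, 137 and 198 from the first row to the last, and that of miR-211 was 40.7, 42.7, 49.5 and 55.5. The last spot of each probe was brighter in Hy5 than the first on 6 of 6 arrays. The ratio went down with it, for miR-204 from 1.02 at the first position to 0.09 at the last in naive (log2), and from 0.32 to -0.59 in EAU. Taken one spot position at a time, the log2 difference between EAU and naive ran from -0.89 to -0.66 for miR-204 and from -0.59 to -0.44 for miR-211, and at none of the 4 positions of either probe did the groups overlap. The gap between the groups was therefore present at each position, but the positions repeat the same 6 arrays. The share of all spots without overlap was not counted. The scanner software marked 2 spots of miR-204 as outliers, 1 on naive replicate 2 and 1 on EAU replicate 2, and 0 of miR-211. Outliers were left out, so the first position of miR-204 held 2 naive arrays and the second held 2 EAU arrays. No spot of either probe was saturated.

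After background correction and loess normalization within each array, the log2 ratio of sample to reference separated the groups for both members. The ratio of miR-204 was 0.67, 0.56 and 0.50 in naive replicates 1 to 3, against 0.13, -0.35 and -0.25 in EAU replicates 1 to 3. No EAU array reached the naive range, and EAU replicate 1 lay nearest to it. The means were 0.58 ± 0.09 in naive and -0.15 ± 0.26 in EAU (SD, n = 3 each), so the spread was wider in EAU.

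The ratio of miR-211 was 0.41, 0.47 and 0.37 in naive replicates 1 to 3, against -0.01, -0.13 and -0.10 in EAU replicates 1 to 3. The arrays of each group lay close together, and the gap between the groups was wider than the range of either. The means were 0.42 ± 0.05 and -0.08 ± 0.06 (SD, n = 3 each). With so narrow a spread, miR-211 had the 2nd smallest p of the 595 probes, while its difference ranked 19th among decreases. The narrow spread depended on the processing. The SE of its difference was 0.042 as reported, and ran from 0.031 with the median of the spots to 0.23 without normalization. With no constant added after background correction it was 0.19. MiR-204, with the larger difference, ranked 7th among decreases and 44th by p. Groups that did not overlap and were lower in EAU made up 29.6% of the tested probes, so the separation of the arrays alone is common here. In an exact permutation test over the arrays, two-sided, each member gave p = 0.1, the smallest that 3 against 3 allows.

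**Figure D2:**
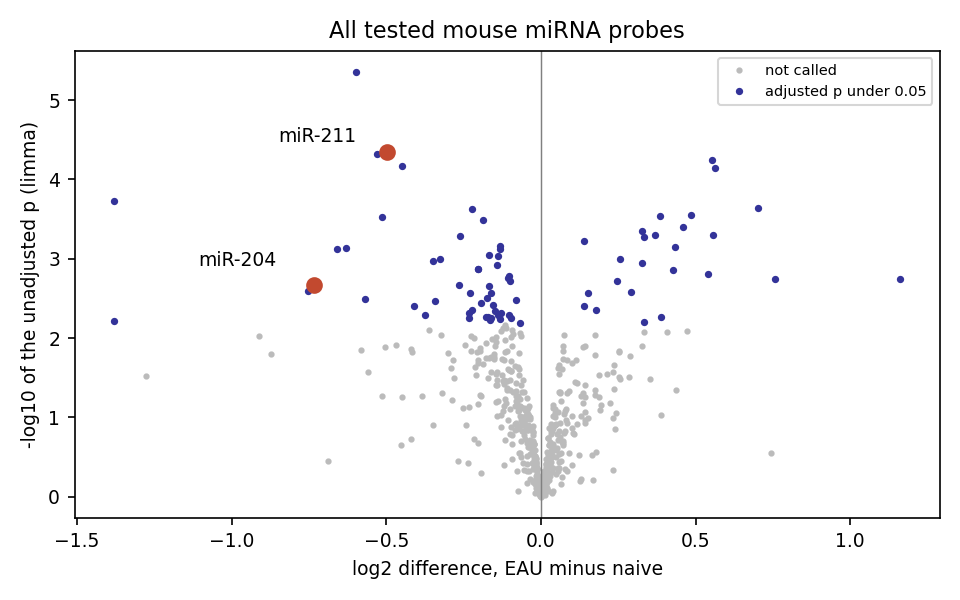
Each point is one of the 595 tested mouse miRNA probes, with the log2 difference EAU minus naive on the horizontal axis and -log10 of the unadjusted limma p on the vertical axis; dark points passed an adjusted p of 0.05. MiR-204 lies further left at -0.73, and miR-211 lies higher at -0.50.

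The sample channel was also tested as log2 Hy3, rebuilt from the loess-normalized ratio and the average intensity of both channels, equalised between arrays. The reference signal thus enters these values too, and they are not independent of the ratio. MiR-204 stood at 9.01, 9.20 and 9.02 (log2 Hy3) on the naive arrays and at 8.25, 7.92 and 7.52 on the EAU arrays, without overlap. Its difference of -1.18 (interval -1.65 to -0.70; limma, adjusted p = 0.0205) is a 2.26-fold decrease. MiR-211 stood at 7.36, 7.14 and 7.14 on the naive arrays and at 6.68, 6.54 and 6.30 on the EAU arrays, again without overlap. It differed by -0.71 (interval -0.995 to -0.42; limma, adjusted p = 0.0205), a 1.63-fold decrease. Leaving out EAU replicate 2 or either of naive replicates 1 and 3 ended both calls in this channel, and leaving out naive replicate 2 ended the one of miR-204 (limma, adjusted p 0.0618 to 0.0764). In this channel 5.71% of the mouse probes were called lower, and 16.3% were lower without overlap. The decrease of miR-204 was thus 1.6 times as large on the log2 scale in this channel as in the ratio.

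In the authors' deposited table of linear ratios, miR-204 stood at 1.46, 1.72 and 1.65 in naive replicates 1 to 3, against 1.03, 0.776 and 0.717 in EAU replicates 1 to 3. MiR-211 stood at 1.59, 1.92 and 1.59 on the naive arrays and at 1.15, 1.04 and 0.767 on the EAU arrays in the same deposited table. Both columns of values keep the groups apart. The log2 of these deposited ratios differed by -0.95 for miR-204 (limma, adjusted p = 0.00466) and by -0.81 for miR-211 (limma, adjusted p = 0.0143). There, 40 of the 588 tested mouse probes were called lower, and the share of probes without overlap was not counted. The centring of that table is not given in the sources used here.

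How far the members fell relative to each other was not resolved. Within each array, the log2 ratio of miR-204 minus that of miR-211 was 0.27, 0.09 and 0.13 on the naive arrays and 0.15, -0.22 and -0.15 on the EAU arrays. The groups overlapped, and the means of 0.16 ± 0.09 and -0.07 ± 0.19 (SD, n = 3 each) differed by -0.24 (exact permutation test, two-sided, p = 0.3; adjusted p = 0.3 over 3 such pairs of probes). This difference changed sign with median centring or no normalization in place of loess (0.087 each), with no constant added after background correction (0.19) and with the scanner's processed signals (0.14).

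A further pair of probes is named for relatives of the members in other species. The probe named for the human miR-211 alone, with 4 spots of its own, had log2 ratios of 0.72, 0.74 and 0.41 in naive replicates 1 to 3, against 0.15, -0.19 and -0.23 in EAU replicates 1 to 3. No EAU array reached the naive range. It fell by 0.71 (SE 0.14; limma over 1724 probes of every species, adjusted p = 0.0487, with 4.23% of those probes called lower). No human RNA was hybridised, so this probe is a second reading of mouse RNA that it binds, which the array's files do not identify. It kept the call without EAU replicate 1 and lost it without any other array (adjusted p 0.0691 to 0.145), under median centring (-0.74, adjusted p = 0.404), without normalization (-0.67, adjusted p = 0.589), with the median of the spots (-0.69, adjusted p = 0.0756), with a replicate block (adjusted p = 0.117) and in the sample channel, where it differed by -1.03 (adjusted p = 0.0904). Its difference from the miR-211 probe within arrays gave exact permutation p = 0.2.

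The probe named for the rat miR-204*, the 3′ arm of the rat hairpin, did not go the way of miR-204. Its log2 ratios were 0.09, 0.06 and 0.09 in naive replicates 1 to 3, against 0.22, 0.12 and 0.13 in EAU replicates 1 to 3, all EAU arrays above all naive ones. How many probes lay higher in EAU without overlap was not counted, so this separation is not read as a result. The difference of 0.08 (interval 0.00 to 0.15) did not pass (limma over all species, adjusted p = 0.154), and in the Hy3 channel it was 0.15 (adjusted p = 0.233). Its raw Hy3 signal was 292, 247 and 219 on the naive arrays and 312, 589 and 223 on the EAU arrays, above the blank level on all 6. The local Hy3 background at its spots was 32.8 in EAU replicate 2 and 38.9 in EAU replicate 3, against 22.2 to 23.8 on the other arrays. Within arrays, miR-204 minus this probe was 0.58, 0.50 and 0.41 in naive and -0.08, -0.47 and -0.38 in EAU. The groups did not overlap, and the change of -0.81 gave the smallest p that 3 against 3 allows (exact permutation test, two-sided, p = 0.1; adjusted p = 0.3 over the 3 pairs). The size of the star probe's own difference depended on the processing: it was 0.52 under median centring (interval 0.05 to 0.98), 0.58 without normalization, 0.35 with no constant added and 0.25 from the scanner's processed signals. Its sign turned in the authors' deposited table, where the log2 difference was -0.15. No probe on the array names the mouse miR-204* or miR-211*.

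**Figure D3:**
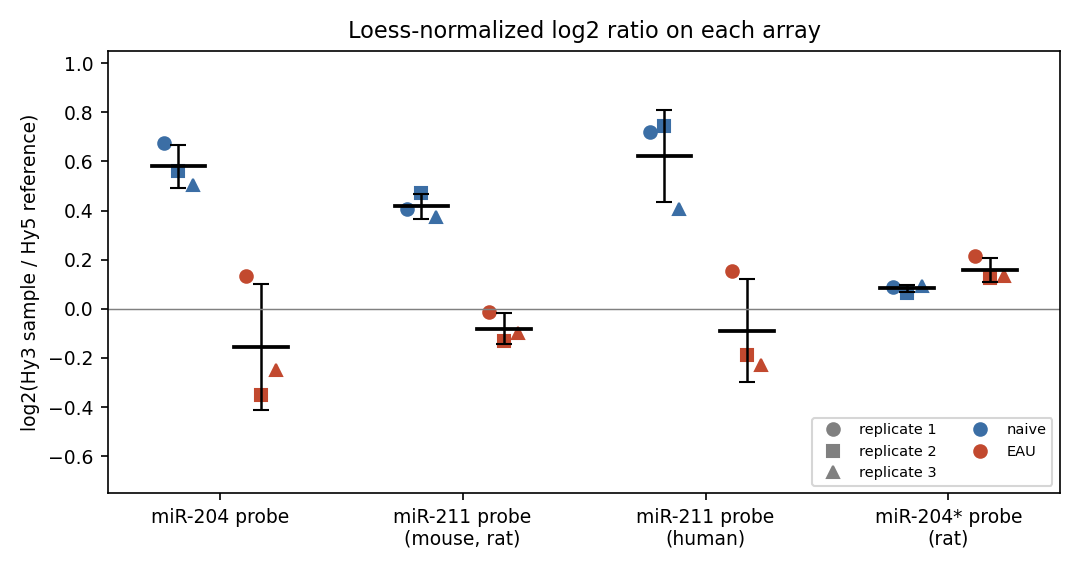
Loess-normalized log2 ratio of sample to pooled reference (vertical axis) on each array, for the probes of miR-204, miR-211 (mouse and rat), human miR-211 and rat miR-204*; blue is naive, red is EAU, marker shapes are replicate numbers, and black lines give the mean and SD of 3 arrays. The first 3 probes are lower on every EAU array, and the star probe lies between 0.06 and 0.22 throughout.

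Lists of miRNAs known from the cells around the pigment epithelium were read beside the members, with a median log2 difference of -0.01 over all 595 probes as background. Of 6 other miRNAs linked to the pigment epithelium (miR-184, miR-187, miR-200a, miR-200b, miR-221 and miR-222), 0 passed in either direction by limma, and 0 had an unadjusted p under 0.05. Their median difference was -0.03. MiR-200a differed by -0.08 (adjusted p = 0.185) and miR-187 by -0.04 (adjusted p = 0.221), and neither miR-187 nor miR-200b exceeded the blanks on any array. MiR-200a exceeded them on 1 naive and 0 EAU arrays, miR-221 on 0 naive and 3 EAU arrays, and miR-222 on 2 naive and 3 EAU arrays. A decrease from a naive signal at the blank level could hardly have been seen. MiR-184 was above the blanks on every array and differed by 0.04 with an SE of 0.20. In the sample channel alone, 0 of the 6 passed as well.

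Of the 3 miRNAs of the photoreceptor cluster (miR-182, miR-183 and miR-96), 1 passed and was lower, and their median difference was -1.28. Of all 595 tested mouse probes, 8.74% were called lower. MiR-183 fell by 1.38 (limma, adjusted p = 0.0483), while miR-96 differed by -0.91 (adjusted p = 0.0593). In the sample channel alone, 3 of 3 fell, where 5.71% of the mouse probes were called lower. Their summed Hy3 signal above local background was 2726 to 3064 on the naive arrays and 418 to 1091 on the EAU arrays. The same sum for miR-204 and miR-211 was 1256 to 1604 and 242 to 1224.

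Of 9 neuronal miRNAs, 2 fell, miR-9 by 0.35 (limma, adjusted p = 0.0211) and miR-128 by 0.17 (adjusted p = 0.0291), and the median difference was -0.05. Over all tested mouse probes, 8.74% were called lower in the ratio and 5.71% in the sample channel. In the sample channel miR-124 (-2.07, adjusted p = 0.0213) and miR-9* (-0.19, adjusted p = 0.0293) were the ones that fell. The log2 ratio of miR-124 differed by -0.69 with an SE of 0.67 (adjusted p = 0.520), and by 0.38 under median centring and 0.36 without normalization. The list's summed Hy3 signal was 44371 to 50419 in naive and 6288 to 18204 in EAU, of which miR-124 alone gave 43699 to 49452 and 5827 to 17017. Without miR-124 the sum was 672 to 967 in naive and 460 to 1452 in EAU, with overlap. Of 4 miRNAs of vessels and pericytes, such as those of the choroid, miR-145 fell by 0.45 (adjusted p = 0.00702) and miR-143 by 0.27 (adjusted p = 0.0291), and the median was -0.16. These calls too stand beside the 8.74% of all tested mouse probes. In the sample channel miR-145 differed by -0.55 (limma, adjusted p = 0.0157) and miR-143 by -0.21 (adjusted p = 0.144). Of 7 leukocyte miRNAs, miR-142-3p rose by 0.56 (adjusted p = 0.0166, with 4.2% of the mouse probes called higher), miR-142-5p differed by 0.47 (adjusted p = 0.0582), and the median was 0.09. In the sample channel 2 of the 7 passed, miR-142-3p at 0.94 (limma, adjusted p = 0.0307) and miR-142-5p at 0.77 (adjusted p = 0.0157). There, 29 of the 595 mouse probes were called higher. The summed Hy3 signal of the leukocyte list was 382 to 477 in naive and 626 to 1433 in EAU, and both miR-142 products exceeded the blanks on 3 of 3 EAU arrays and on 0 of 3 naive ones. In raw Hy3 signal the EAU arrays were lower in the photoreceptor sum and in miR-124, and higher in the leukocyte sum, each without overlap. These signals were not normalized, and the arrays differed in brightness. How many probes did not overlap in raw Hy3 was not counted, so these separations are not read as results. The part of these lists in the decrease of miR-204 and miR-211 was not tested.

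Among the 191 other mouse probes above the blanks on every array, the 3 whose log2 ratios ran most like those of miR-204 over the 6 arrays were miR-9 (Pearson r 0.992), miR-30c (0.990) and miR-30d (0.989). For miR-211 they were miR-30e (0.994), let-7f (0.989) and miR-30d (0.985). The members correlated with each other at 0.960, which placed miR-211 10th in likeness to miR-204 and miR-204 12th in likeness to miR-211. These values describe 6 arrays that fall into the naive and EAU groups and share one reference, so any probe that separates the groups by being lower in EAU scores high.

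The calls of the members depended on the normalization within arrays. With each array only centred on its median, miR-204 differed by -0.61 (limma, adjusted p = 0.374) and miR-211 by -0.70 (adjusted p = 0.129). Without any normalization they differed by -0.54 (adjusted p = 0.528) and -0.63 (adjusted p = 0.223). Before normalization the log2 ratio of miR-204 was 3.07, 2.61 and 3.12 in naive and 2.80, 2.72 and 1.66 in EAU, so that the groups overlapped. That of miR-211 was 2.00, 1.78 and 1.70 against 1.38, 1.54 and 0.68, without overlap. How many probes did not overlap before normalization was not counted. The loess step moved these ratios by -3.07 to -1.91 at miR-204 and by -1.67 to -0.78 at miR-211, depending on the array.

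Single arrays also carried the call of miR-204. Only without EAU replicate 1 did it stay called (adjusted p = 0.00857). It lost the call without naive replicate 1, 2 or 3 (adjusted p = 0.105, 0.0948 and 0.0654) and without EAU replicate 2 or 3 (0.0533 and 0.0860), at differences of -0.77 to -0.64. MiR-211 stayed called without any one array (-0.53 to -0.47; limma, adjusted p 0.00857 to 0.0405). Its size moved more with the background correction: -0.89 with a constant of 10 in place of 50 added to both channels, -1.11 with none, and -1.17 from the scanner's processed signals. For both members the difference was negative in each of 16 other settings and without each of the 6 arrays. Settings that change only the tested probes or the fit keep the difference as reported, so their sign was fixed in advance. These are the probes above the blanks, the probes of every species, the replicate block, and the trend and robust fit. Leaving out an array could not turn the sign either, because each array is normalized on its own and the groups did not overlap. Scaling between arrays could not turn that of miR-211, whose ratios were all above 0 in naive and all below 0 in EAU.

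**Figure D4:**
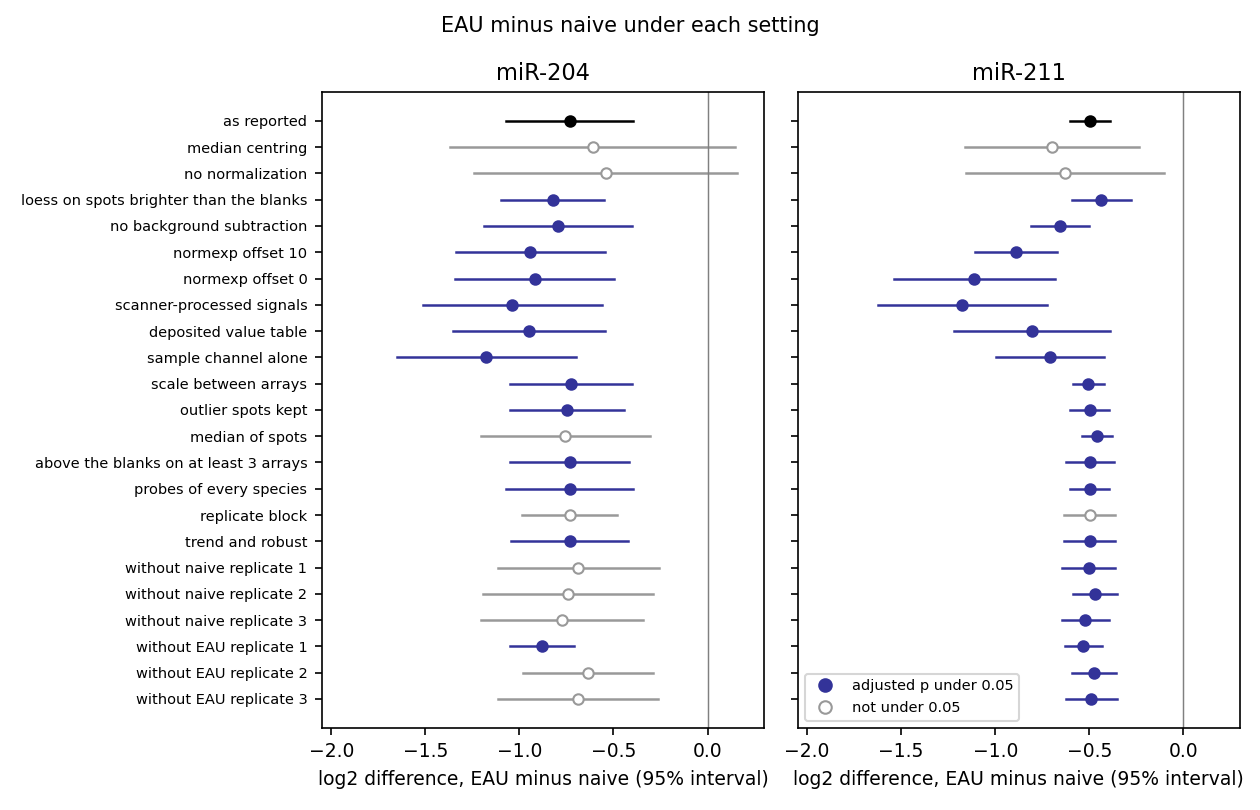
Log2 difference EAU minus naive (horizontal axis, with its 95% limma interval) of miR-204 and miR-211 under each setting; black is the value as reported, filled points have an adjusted p under 0.05 and open points do not. Every point lies left of 0, with intervals that cross 0 for miR-204 under median centring and no normalization.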

How the data were processed

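MiRNA abundance was measured on 6 arrays, 3 naive and 3 EAU, all with Hy3 for the sample and Hy5 for the pooled reference. The authors deposited the intensity of each spot and of its surroundings in both channels; the file headers name Agilent Feature Extraction 9.1.3.1. A second deposited table gives 1 linear ratio a probe and follows Hy3 over Hy5 (1972 rows, without 36 that exceed 32 on every array). How it was normalized is not stated in the sources used here.

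Mean spot signals were corrected by normexp with an offset of 50 and normalized by loess, giving control spots weight 0, with R 4.3.3 and limma 3.58.1. Spots marked as outliers were dropped, and the log2 values of a probe's other spots averaged. Of 597 mouse probes, 595 had enough values. EAU was compared with naive by lmFit and eBayes, two-sided, with Benjamini-Hochberg adjustment over all 595 and a threshold of 0.05. The fit was tested on simulated data. The number of arrays limits the precision, and p-values measure the spread between harvests, whose makeup is not stated. Named were the members, their relatives on the array, list members that passed or had the 2 smallest p-values, and the 3 most alike probes; miR-184 was added after its values were seen. Members, lists and tests were chosen with earlier results of these data known. Alternatives changed one choice at a time, except that the deposited table replaces every step up to the fit; those for the human and rat probes, and the sums with and without miR-124, were added after seeing the data.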

Additional observations from a re-analysis of the deposited data

How the results depend on the processing

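The direction of miR-204 and of miR-211 was the same in the 16 alternatives and without each array. In the alternatives that change only the tested probes or the fit, the direction could not change. Nor could it without single arrays, because each array is normalized on its own and the groups did not overlap. For miR-211 it could not change with scaling between arrays either, as its naive ratios were all above 0 and its EAU ratios all below. Under median centring the differences were -0.61 and -0.70 and under no normalization -0.54 and -0.63, and neither passed. With the median of the spots miR-204 was at -0.76 (adjusted p = 0.0637). Whether equal replicate numbers pair the samples could not be decided from 3 arrays a group. Deviations of same-numbered arrays correlated at 0.24, -0.15 and 0.31. Naive replicates 1 and 3 were closest to the EAU array of their own number, and naive replicate 2 was not. With a replicate block miR-204 was at -0.73 (limma, adjusted p = 0.0742), miR-211 at -0.50 (0.0697), and miR-204 in the sample channel alone at -1.18 (0.0601). Without background subtraction the sample channel alone gave -1.32 and -0.86 (adjusted p = 0.0503 for both). Leaving out each array gave -0.88 to -0.64 for miR-204 and -0.53 to -0.47 for miR-211, and in the sample channel alone -1.35 to -1.01 and -0.80 to -0.62, where 4 and 3 of the 6 lost the call. The change of miR-204 minus that of miR-211 turned positive with median centring (0.087), no normalization (0.087), offset 0 (0.19) and scanner-processed signals (0.14), and was -0.35 to -0.16 without single arrays. The star probe was at -0.15 in the deposited table.

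Of the mouse probes 77 were called (25 higher, 52 lower). Counts were 2 with median centring (1 higher, 1 lower), 25 with no normalization (21 and 4), 33 with loess on bright spots (18 and 15), 26 at offset 0 (16 and 10), 47 with the median of spots (21 and 26), 2 with the replicate block and 8 to 79 without single arrays. Larger counts were 85 with outlier spots kept, 94 without background subtraction, 96 with the trend and robust fit, 98 at offset 10 and 104 with scaling between arrays. The split was also 42 and 30 with scanner-processed signals, 42 and 40 in the deposited table and 29 and 34 in the sample channel alone. The causes were not tested. Signal over background was limited for miR-211 on EAU replicate 3, where 0 of 4 reference spots exceeded the blank level.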
